A study of Mus musculus with 26 samples.

Results

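The genes described here are 49 genes of DNA replication and S phase, measured by RNA sequencing in primary mouse keratinocytes with and without the phospholipase PLA2G4D. They were chosen by symbol and not filtered on a measured value, but with earlier results of these data known. All 49 of 49 were found among the 56738 symbols in the files and passed the filter on low counts. They fall into 7 roles, namely origin licensing (10 genes), helicase activation (6), polymerases and primase (7), clamp, clamp loaders and other fork factors (13), nucleotide supply (6), regulators of the G1/S transition (3), and chromatin and histone mRNA factors (4).

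The cells came from the epidermis of 2-day-old C57BL/6NJ pups, 5 wild type (WT) and 8 knockout (KO) for Pla2g4d. In the KO line CRISPR editing had removed exon 3 from the whole animal, and the line was backcrossed before use. The keratinocytes of each pup were cultured for 4 days in medium with 0.06 mM CaCl2, a calcium level that keeps them proliferating, and were then left untreated (basal) or given IL17A and TNFα at 20 ng/ml each for 24 h. These cytokines drive the inflammatory response of keratinocytes in psoriasis. Each of the 13 pups gave 1 basal and 1 cytokine-treated library, each made from pooled wells of that animal, so the 26 libraries form the groups WT basal (n = 5), WT with cytokines (n = 5), KO basal (n = 8) and KO with cytokines (n = 8). All groups share the strain, the age, the medium and the culture time, and the sex of the pups was not recorded.

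A cell copies its genome once per division. In G1 the origin recognition complex, CDC6 and CDT1 load the MCM2-7 helicase onto origins. At the onset of S phase CDC45 and the GINS complex activate the helicase, and polymerases, the PCNA clamp and its loaders copy the strands while ribonucleotide reductase and related enzymes supply deoxynucleotides. Many of these genes are switched on together by E2F transcription factors once cyclin E has pushed the cell past the restriction point. In epidermis this program is active in basal keratinocytes and is shut down as cells differentiate. In bulk RNA, a larger share of cells in S phase and more of these transcripts per cell cannot be told apart.

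E2F sites were sought in the promoters because E2F control is what these genes are best known to share. RefSeq promoters on build GRCm38.p6, from 250 bases before to 50 after the start, were listed for 40 of the 49 genes (45 promoters). The E2F words searched on both strands were TTTCCCGC, TTTCGCGC, TTTGCCGC and TTTGGCGC, and a base could belong to more than 1 word. At least 1 word stood in 15 of the 45 promoters (33.3%), against 2.27% of all 32841 promoters listed. The 15 genes were Orc1, Cdc6, Cdt1, Mcm3, Mcm5, Mcm6, Mcm7, Gins3, Pola1, Pold1, Pole2, Rfc3, Lig1, Clspn and Uhrf1. The CCAAT box (CCAAT) stood in 57.8% of the members' promoters against 37.4% of all, and the CHR word of mitotic genes (TTTGAA) in 8.89% against 17.9%. Stretches from 4 promoters with an E2F word outside the exons of protein-coding genes are shown, from 2 licensing subunits, the licensing loader CDC6 and the initiating polymerase, in lower case with the E2F words in capitals, 5′ to 3′ on the strand of the gene. All were located in GRCm39 by exact match. The Cdc6 stretch lies at chr11:98798808-98798976 on the plus strand, just before the RefSeq start and inside an intron of longer GENCODE transcripts of Cdc6. Those of Mcm5 (chr8:75835937-75836136, plus strand), Mcm6 (chr1:128287517-128287642, minus strand) and Pola1 (chrX:92675814-92675961, minus strand) lie before the genes.
Cdc6: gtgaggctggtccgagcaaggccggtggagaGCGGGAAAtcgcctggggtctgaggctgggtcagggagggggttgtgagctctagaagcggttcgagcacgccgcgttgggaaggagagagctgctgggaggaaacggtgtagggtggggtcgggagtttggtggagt
Mcm5: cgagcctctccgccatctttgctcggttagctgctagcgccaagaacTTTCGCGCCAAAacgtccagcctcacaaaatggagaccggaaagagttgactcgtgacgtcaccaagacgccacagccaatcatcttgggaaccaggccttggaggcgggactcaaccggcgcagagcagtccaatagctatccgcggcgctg
Mcm6: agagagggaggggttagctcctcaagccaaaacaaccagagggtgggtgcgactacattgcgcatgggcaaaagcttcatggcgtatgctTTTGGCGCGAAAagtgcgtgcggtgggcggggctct
Pola1: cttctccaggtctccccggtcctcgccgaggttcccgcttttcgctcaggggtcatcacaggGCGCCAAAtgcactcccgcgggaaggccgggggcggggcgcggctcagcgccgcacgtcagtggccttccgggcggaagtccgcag

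A match of letters is a description and not a binding site. In KO cells the cytokine response passed the test in 8 of the 15 genes with an E2F word and in 11 of the 25 genes with a listed promoter and no such word, where 17.7% of all genes rose. With the mouse as a block it passed in 13 of 15 and 20 of 25, where 20.1% of all genes rose.

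The libraries held between 42072745 and 78102858 counts, of which the 49 genes together took from 0.0719% to 0.138%. The lowest count of a member in any library was 18 (Dscc1) and the highest 7822 (Rrm1). Levels are given as CPM, which are counts scaled to a common library size with TMM factors, and per length as FPKM. Markers of basal keratinocytes (7 of 7 listed) summed to between 32989 and 46406 CPM in every library, whereas fibroblast markers summed to at most 8.24, endothelial markers to at most 5.96, immune markers to at most 54.9 and melanocyte markers to between 305 and 638. One immune and 1 endothelial marker were at 0 throughout. By Xist and Y-linked genes, 2 of 5 WT and 4 of 8 KO mice had a female pattern, and both libraries of every mouse gave the same pattern.

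The targeted gene was read first. Pla2g4d was at 1.22, 4.41, 3.14, 3.34 and 4.63 CPM in the libraries labelled WT 1 to 5 basal and at 28.6, 65.2, 47.1, 57.2 and 62.9 CPM with cytokines. In the 8 KO mice it ranged from 1.15 to 2.98 CPM (median 2.10) basally and from 29.2 to 59.2 CPM (median 36.2) with cytokines. The counts cover the whole gene, so reads from exons outside the deletion remain and the count is not a direct check of the genotype. The labels were kept. The library labelled WT 1 was the lowest WT library under both conditions and lay among or below the KO libraries, and the library labelled KO 8 was the highest KO library under both conditions and with cytokines lay among the WT libraries. The mouse WT 1 also stood apart in the replication genes. WT 1 was the highest WT library for 48 of 49 members basally and for 47 of 49 with cytokines, against 24.9% and 23.4% of all genes. The paper did check the deletion itself. It reports that cytokine-treated KO cells had no sequencing reads over the deleted exon, and that an RT-PCR product reaching into the deletion was missing from KO samples. Its text does not describe single mice. That check could not be repeated here, because the counts do not separate exons. Whether the labels of WT 1 and KO 8 are right was thus not tested here, and every difference between genotypes below rests on the labels. Results are therefore given with all mice, without WT replicate 1, and where this changed them also without WT replicate 1 and KO replicate 8.

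The abundance of the members per length spanned more than 2 orders of magnitude. The mean FPKM over the 26 libraries was highest for Pcna, the sliding clamp, at 34.8 ± 3.32 (SD, range 28.7 to 40.8). Rrm2, the regulated subunit of ribonucleotide reductase, followed at 20.7 ± 5.57 (range 11.7 to 28.2). The replication protein A subunit Rpa3 (9.74 ± 2.41), the large clamp loader subunit Rfc1 (9.50 ± 0.837) and the helicase subunit Mcm4 (9.13 ± 1.68) came next and did not differ beyond their spread. The lowest members were the catalytic polymerase α subunit Pola1 (0.660 ± 0.208), the initiation factor Mcm10 (0.555 ± 0.167) and Dscc1 (0.199 ± 0.0782), a subunit of the alternative clamp loader that acts in sister chromatid cohesion. These low members carry more counting error than Pcna or Rrm2.

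To follow the members from mouse to mouse, a score was taken as the mean over the 49 genes of the log2 CPM minus each gene's mean over all libraries. Basally it was 0.40, -0.52, -0.22, -0.36 and -0.49 in WT mice 1 to 5, and with cytokines 0.48, -0.18, -0.11, -0.25 and -0.28. In KO mice 1 to 8 it was 0.24, 0.12, 0.02, 0.02, -0.12, -0.20, -0.25 and -0.43 basally (mean -0.07 ± 0.22, n = 8). Their treated scores were 0.42, 0.42, 0.30, 0.35, 0.27, 0.23, 0.15 and -0.01 (mean 0.27 ± 0.14). KO 8 stood at the low end of a general fall with the replicate number, whose cause was not tested. With cytokines the WT 1 library lay above all 8 KO libraries and the other 4 WT libraries lay below all 8. The rise of the score from basal to cytokines within a mouse was positive in 5 of 5 WT mice (0.17 ± 0.11, range 0.08 to 0.34) and in 8 of 8 KO mice (0.34 ± 0.09, range 0.18 to 0.43).

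**Figure D1:**
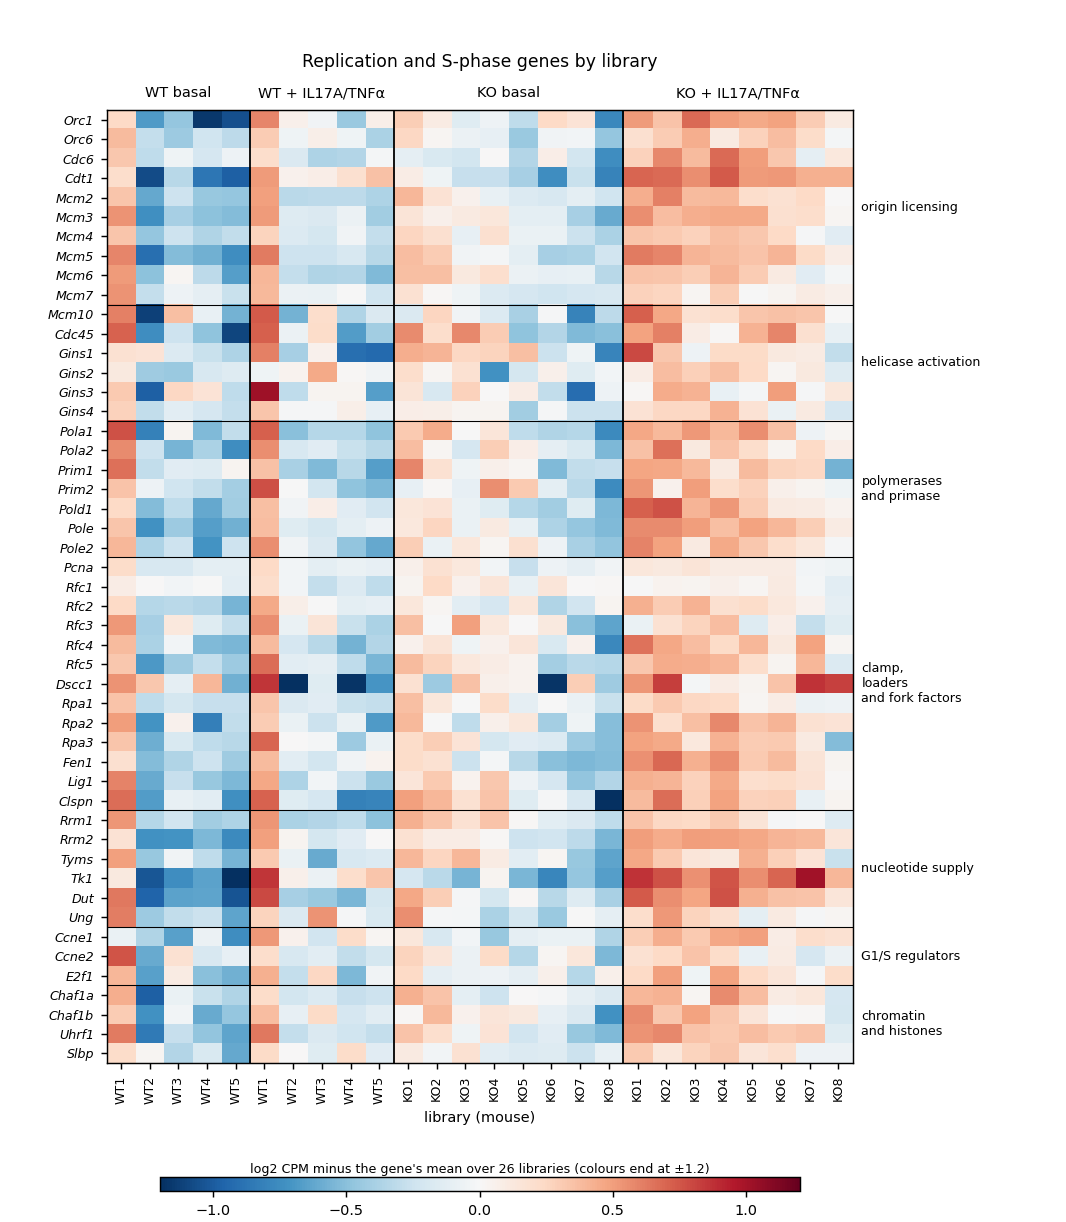
Heat map of the 49 replication genes (rows, by role) in the 26 libraries (columns, by group and mouse); colour is log2 CPM minus the mean of that gene over all libraries. The WT 1 columns stand out from the other WT columns across nearly all rows, and the KO columns with cytokines are high except that of KO 8.

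**Figure D2:**
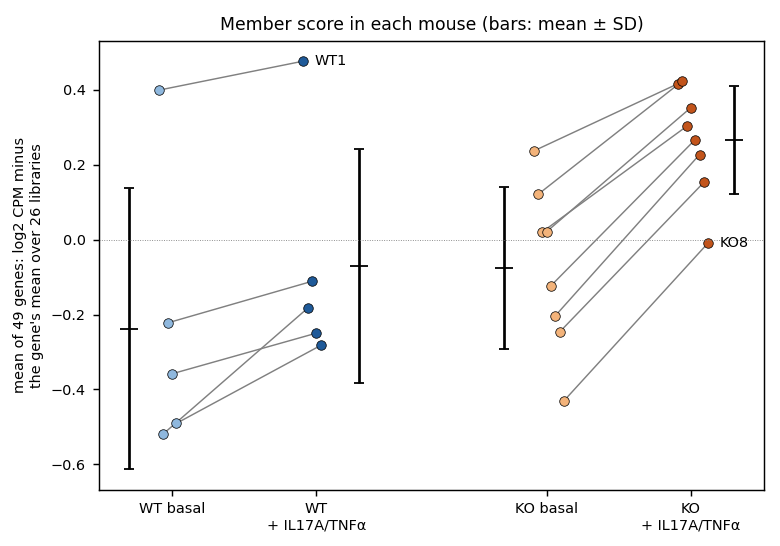
Mean deviation of the 49 genes (log2 CPM) in each mouse, with basal and cytokine-treated libraries of 1 mouse joined by a line. Every line rises, by 0.08 to 0.34 in the 5 WT mice and by 0.18 to 0.43 in the 8 KO mice.

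The first comparison asked how IL17A and TNFα changed replication genes within each genotype. In WT cells 6 of 49 members rose at an adjusted p under 0.1 and none fell, and the median log2 fold change of the members was 0.14, against 0.01 over all genes. Of all 16893 genes tested, 18.8% rose, so in this fit without a mouse block the share of members that rose was no larger than this background. In KO cells 22 of 49 rose and none fell, with a median of 0.27 against 0.00 over all genes and a background of 17.7%. With a fold over 1.5 required as well, 3 members were called in WT cells (Tk1, Cdt1 and Orc1; background 8.65%) and 3 in KO cells (Tk1, Cdt1 and Fen1; background 6.33%). Blocking on the mouse, which supplied both libraries, gave 17 members higher and 1 lower (Prim1) in WT cells (background 21.2%) and 37 higher in KO cells (background 20.1%). Without WT replicate 1, 13 members rose and 2 fell in WT cells (background 18.7%) and 30 rose in KO cells (background 18.6%). Without WT replicate 1 and KO replicate 8 the counts were 15 higher and 2 lower in WT cells (background 19.3%) and 31 higher in KO cells (background 17.8%). Within mice, 11 of the 49 members were higher with cytokines in all 13 (Orc1, Cdt1, Mcm5, Pole, Pold1, Fen1, Rrm2, Tk1, Dut, Ccne1 and Uhrf1), against 10.4% of all genes.

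Among the nucleotide supply genes, Tk1 changed most of all 49. It encodes cytosolic thymidine kinase, which salvages thymidine in S phase. Its level was 11.5, 5.20, 6.30, 6.77 and 4.61 CPM in WT mice 1 to 5 basally and 19.1, 11.0, 10.1, 12.2 and 13.3 CPM with cytokines, a log2 fold change of 0.93 ± 0.19 (SE; 1.91-fold, adjusted p = 0.000354, edgeR). The KO mice ranged from 6.15 to 10.8 CPM (median 7.44) basally and from 14.0 to 21.3 CPM (median 17.5) with cytokines, a log2 fold change of 1.13 ± 0.15 (2.18-fold, adjusted p = 8.59e-07). Basal and treated libraries did not overlap in KO mice, and in WT mice only the basal library of WT 1 reached into the treated range.

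Rrm2 also rose in both genotypes. It went from 74.4, 40.0, 40.2, 45.3 and 38.9 CPM in WT mice 1 to 5 to 92.9, 67.7, 57.0, 59.9 and 66.3 CPM, a log2 fold change of 0.53 ± 0.15 (adjusted p = 0.0079). KO mice went from 45 to 75.1 CPM (median 61.5) to 73.1 to 93.5 CPM (median 90.7), a log2 fold change of 0.52 ± 0.12 (adjusted p = 0.000961). The treated KO 8 library, at 73.1 CPM, was the only KO treated library that fell within the basal range. Dut, the dUTPase that keeps uracil out of DNA, rose in KO cells (0.50 ± 0.20 in log2, adjusted p = 0.0639) and not by the test in WT cells (0.31 ± 0.26, adjusted p = 0.397).

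Tyms, thymidylate synthase, was at 16.1, 8.38, 11.1, 9.35 and 7.82 CPM in WT mice 1 to 5 basally and at 14.3, 10.9, 7.56, 10.1 and 10.3 CPM with cytokines (0.00 ± 0.20 in log2, adjusted p = 0.989). KO mice ran from 7.43 to 15.2 CPM (median 12) and from 9.59 to 15.9 CPM (median 13.4; 0.18 ± 0.15, adjusted p = 0.427). The groups overlapped in both genotypes. The large reductase subunit Rrm1 was near 0 in both (-0.03 and 0.04), and Ung, the uracil glycosylase, passed the test in neither genotype (0.24 and 0.21).

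Licensing genes gave the largest number of calls in KO cells, 8 of 10, against 17.7% of all genes. Cdt1, which brings the helicase to origins, was at 15.2, 6.26, 10.4, 7.24 and 6.69 CPM in WT mice 1 to 5 basally and at 18.8, 13.7, 13.9, 15.1 and 16.8 CPM with cytokines (0.77 ± 0.18 in log2, 1.70-fold, adjusted p = 0.00144). Across KO mice Cdt1 was between 7.55 and 14.0 CPM (median 10.9) basally and between 17.7 and 22.0 CPM (median 19.2) with cytokines (0.89 ± 0.14, 1.85-fold, adjusted p = 1.31e-05). All 8 treated KO libraries lay above all 8 basal ones, and in WT mice the basal WT 1 library was above 3 of the 5 treated ones.

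Orc1, the origin recognition subunit that is made anew in each G1 phase, rose as well. Its level in WT mice 1 to 5 was 6.44, 3.40, 3.96, 2.45 and 2.62 CPM basally and 8.19, 5.68, 5.31, 4.01 and 5.74 CPM with cytokines (0.62 ± 0.22, adjusted p = 0.0291). KO mice went from 3.19 to 6.72 CPM (median 5.54) to 5.88 to 8.75 CPM (median 7.54), a log2 fold change of 0.46 ± 0.17 (adjusted p = 0.0408). The groups overlapped in both genotypes, although the treated library was the higher one in all 13 mice.

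Cdc6, the ATPase that works with ORC and CDT1, had log2 fold changes of opposite sign in the 2 genotypes. In WT mice 1 to 5 it was at 6.09, 3.95, 4.70, 4.23 and 4.68 CPM basally and at 5.66, 4.33, 3.78, 3.81 and 4.80 CPM with cytokines, with overlapping groups and a log2 fold change of -0.08 ± 0.16 (adjusted p = 0.766). In KO mice it went from 2.90 to 5.16 CPM (median 4.25) to 4.52 to 7.81 CPM (median 6.21), a log2 fold change of 0.56 ± 0.13 (1.48-fold, adjusted p = 0.000854). The treated library was higher in 8 of 8 KO mice and in 2 of 5 WT mice, and 7 of 8 treated KO libraries lay above every basal one.

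Of the MCM helicase subunits, Mcm2, Mcm3, Mcm5 and Mcm7 rose in KO cells, by 0.32, 0.42, 0.43 and 0.23 in log2. Mcm4 (0.23, adjusted p = 0.101) and Mcm6 (0.14, adjusted p = 0.519) did not pass, but with the mouse as a block all 10 licensing genes rose in KO cells (background 20.1%). In WT cells none of the 6 subunits passed, with log2 fold changes from -0.06 (Mcm6) to 0.29 (Mcm5), and with the mouse as a block Mcm3 (0.26, adjusted p = 0.014) and Mcm5 (0.35, adjusted p = 0.0019) did. Mcm2 was at 46.5, 24.2, 31.0, 27.0 and 26.8 CPM in WT mice 1 to 5 basally and at 51.8, 29.5, 29.8, 29.8 and 28.6 CPM with cytokines. KO mice ran from 31.4 to 48.6 CPM (median 34.4) basally and from 37.1 to 56.1 CPM (median 45.9) with cytokines (0.32 ± 0.13, adjusted p = 0.0566). Within each genotype the basal and treated ranges overlapped. Orc6, another origin recognition subunit, rose in KO cells (0.34 ± 0.11, adjusted p = 0.0224) and not by the test in WT cells (0.14 ± 0.14).

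Of the 6 helicase activation genes, 2 rose in KO cells (background 17.7%) and none in WT cells (background 18.8%). Mcm10, which acts when the loaded helicase is activated, rose in KO cells (0.51 ± 0.20, adjusted p = 0.0478). So did the GINS subunit Gins4 (0.23 ± 0.09, adjusted p = 0.0674). Cdc45, the helicase cofactor, was at 8.14, 2.96, 4.19, 3.56 and 2.32 CPM in WT mice 1 to 5 basally and at 8.2, 4.75, 5.81, 3.12 and 3.72 CPM with cytokines. It ranged from 3.44 to 7.44 CPM (median 4.83) in basal and from 4.68 to 7.55 CPM (median 6.16) in treated KO mice. The groups overlapped, and neither log2 fold change (0.27 ± 0.29 in WT, 0.25 ± 0.23 in KO) passed. The other GINS subunits had log2 fold changes from -0.11 to 0.30 in WT and from 0.08 to 0.27 in KO cells.

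Of the polymerase genes, the catalytic subunits of the replicative polymerases δ and ε, Pold1 and Pole, rose in KO cells by 0.54 ± 0.13 (adjusted p = 0.00145) and 0.52 ± 0.13 (adjusted p = 0.00274) in log2. In WT cells they had 0.31 ± 0.16 and 0.34 ± 0.17 and did not pass, but did with the mouse as a block (adjusted p = 0.00283 and 0.0027). Both were higher with cytokines in all 13 mice. Pola1 was at 14.8, 4.98, 8.92, 6.04 and 7.09 CPM in WT mice 1 to 5 basally and at 14.4, 6.17, 6.89, 6.89 and 6.25 CPM with cytokines (-0.04 ± 0.25). Among KO mice Pola1 ranged from 5.15 to 11.9 CPM (median 7.87) basally and from 8.38 to 12.9 CPM (median 11.4) with cytokines (0.40 ± 0.20, adjusted p = 0.139, and 0.00248 with the mouse as a block). These groups overlapped, and the WT 1 libraries were above every KO library. The primase subunit Prim1, which makes the RNA primers, was lower with cytokines in all 5 WT mice (-0.33 ± 0.21, adjusted p = 0.266, and 0.0715 with the mouse as a block) and higher in 6 of 8 KO mice (0.25 ± 0.17, adjusted p = 0.292).

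At the fork, the clamp gene Pcna passed the test in neither genotype. It was at 97.3, 73.1, 72.7, 76.6 and 76.9 CPM in WT mice 1 to 5 basally and at 98, 81.6, 77.0, 79.0 and 77.6 CPM with cytokines (0.06 ± 0.08, adjusted p = 0.632). KO mice ran from 68.9 to 94.6 CPM (median 81.0) basally and from 80.2 to 92.7 CPM (median 89.3) with cytokines (0.09 ± 0.06, adjusted p = 0.311), with overlapping groups throughout. Fen1, the flap nuclease that trims Okazaki fragments, was higher with cytokines in all 13 mice.

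In WT mice 1 to 5 Fen1 went from 16.5, 10.1, 11.3, 12.2 and 10.8 CPM to 18.8, 13.3, 12.4, 14.0 and 14.9 CPM (0.27 ± 0.16, adjusted p = 0.21, and 0.0128 with the mouse as a block). In KO mice it went from 9.98 to 16.8 CPM (median 11.8) to 14.8 to 23.3 CPM (median 19.2), a log2 fold change of 0.59 ± 0.13 (1.51-fold, adjusted p = 0.000429). The basal and treated ranges overlapped in both genotypes, and 6 of 8 treated KO libraries lay above every basal one.

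Rpa2, a subunit of the single-strand binding protein, was at 13.4, 5.77, 9.84, 5.38 and 7.75 CPM in WT mice 1 to 5 basally and at 11.7, 8.99, 7.92, 8.95 and 5.94 CPM with cytokines (0.05 ± 0.20). It rose in KO mice from 6.66 to 12.4 CPM (median 9.29) to 10.6 to 14.1 CPM (median 12.1), by 0.41 ± 0.16 (adjusted p = 0.045), with overlap between the groups. The clamp loader subunit Rfc2 rose in WT (0.32 ± 0.13, adjusted p = 0.0678) and KO cells (0.28 ± 0.10, adjusted p = 0.043), and Rfc4 in KO cells alone by the test (0.40 ± 0.14, adjusted p = 0.0377, against 0.00 ± 0.18 in WT). Rfc1 was the member that was higher with cytokines in the fewest mice, 2 of 13, with log2 fold changes of -0.09 ± 0.07 in WT and -0.06 ± 0.06 in KO cells. The other 7 members of this role passed in neither genotype. They were Rfc3, Rfc5, Dscc1, Rpa1, Rpa3, the ligase Lig1 and the checkpoint adaptor Clspn. With the mouse as a block, 10 of the 13 genes of this role rose in KO cells (background 20.1%) and 3 in WT cells (background 21.2%).

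Of the G1/S regulators, Ccne1 rose in both genotypes. It encodes cyclin E1, which with CDK2 starts S phase. It was at 11.1, 9.17, 7.50, 11.2 and 7.04 CPM in WT mice 1 to 5 basally and at 16.9, 12.2, 10.1, 13.8 and 12 CPM with cytokines (0.50 ± 0.14, 1.41-fold, adjusted p = 0.00542). In KO mice it went from 8.64 to 13 CPM (median 11.1) to 12.6 to 16.6 CPM (median 14.6), by 0.45 ± 0.11 (1.37-fold, adjusted p = 0.00143). Only 1 treated library in each genotype fell within the basal range.

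The paralog Ccne2 passed in neither genotype. Its WT levels were 11.6, 4.51, 7.79, 5.99 and 6.40 CPM basally and 7.91, 5.99, 6.27, 5.57 and 5.90 CPM with cytokines (-0.20 ± 0.18, adjusted p = 0.46), and its KO levels ran from 4.72 to 8.24 CPM (median 7.26) and from 5.95 to 8.69 CPM (median 7.57; 0.09 ± 0.14, adjusted p = 0.695). E2f1, the activating E2F, was at 12.7, 6.13, 10.3, 6.83 and 6.48 CPM in WT mice 1 to 5 basally and at 12.9, 7.91, 11.4, 6.63 and 9.39 CPM with cytokines (0.19 ± 0.18, adjusted p = 0.479). In KO mice E2f1 ran from 7.62 to 11.4 CPM (median 9.22) and from 9.30 to 13.5 CPM (median 11.3; 0.26 ± 0.14, adjusted p = 0.171). For both genes the groups overlapped, and the treated library was higher in 12 of 13 mice for E2f1 and in 6 of 13 for Ccne2.

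Among the chromatin genes, Uhrf1 was higher with cytokines in all 13 mice. It encodes the factor that brings the maintenance DNA methyltransferase to newly copied DNA. Its levels in WT mice 1 to 5 were 53.9, 19.5, 28.9, 25.3 and 22.6 CPM basally and 54.4, 28.8, 31.0, 29.7 and 28.7 CPM with cytokines (0.20 ± 0.21, adjusted p = 0.53, and 0.0259 with the mouse as a block). KO mice went from 24.2 to 44.5 CPM (median 32.8) to 31.8 to 52.4 CPM (median 44.5; 0.40 ± 0.17, adjusted p = 0.0708). The WT 1 libraries exceeded every KO library and the other WT libraries stayed at or below 31.0 CPM. Slbp, which binds the end of histone mRNAs, rose in KO cells (0.22 ± 0.10, adjusted p = 0.0787) and not by the test in WT cells (0.19 ± 0.12). The chromatin assembly subunits Chaf1a and Chaf1b passed in neither. With the mouse as a block, all 4 genes of this role rose in KO cells (background 20.1%) and 3 in WT cells (background 21.2%).

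**Figure D3:**
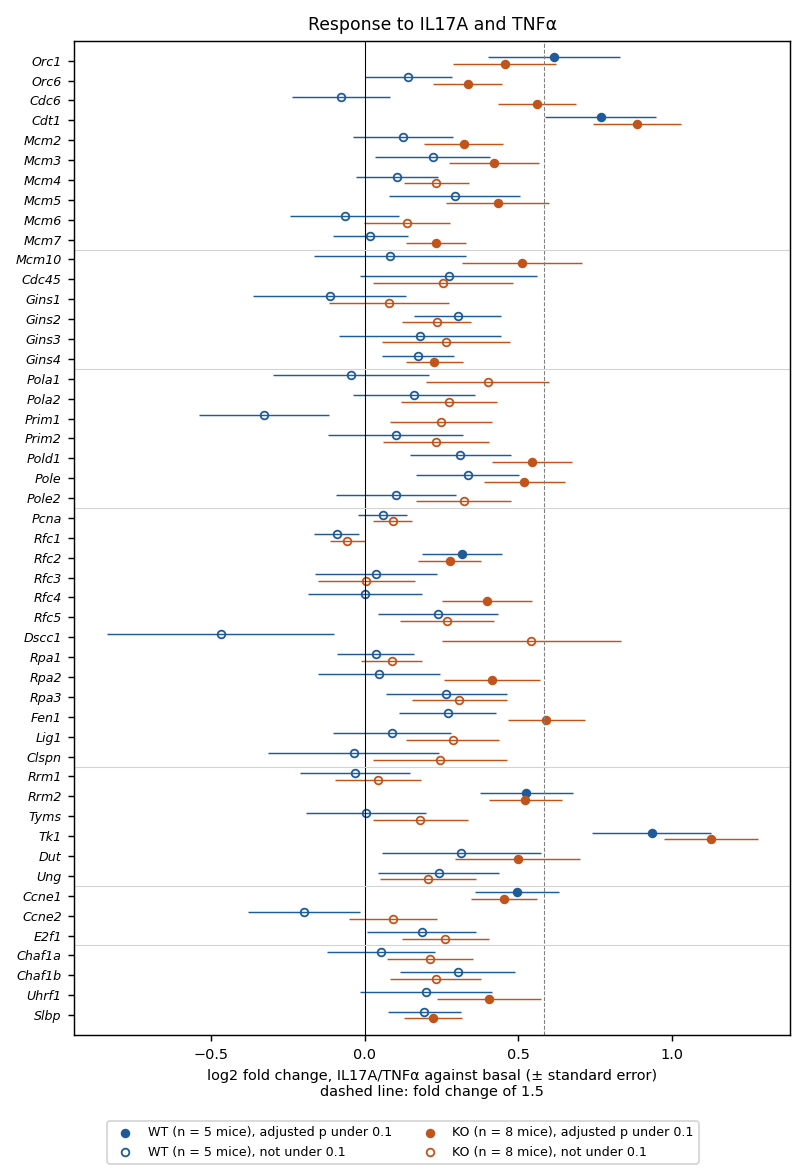
Log2 fold change from basal to IL17A and TNFα (± standard error) of the 49 genes in WT (blue, n = 5 mice) and KO cells (orange, n = 8), with filled points at an adjusted p under 0.1 and a dashed line at a fold of 1.5. There are 6 filled points in WT and 22 in KO cells, all to the right of 0.

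Markers of differentiating keratinocytes moved with the cytokine response in the opposite direction. Of 7 such markers, 6 fell and none rose in each genotype, with median log2 fold changes of -2.61 in WT and -2.84 in KO cells. Their summed level was 2333 to 4384 CPM in WT basal, 189 to 372 in WT treated, 1814 to 3904 in KO basal and 128 to 243 in KO treated libraries, and none was at 0 throughout. Among all genes, 18.8% rose and 18% fell in WT cells, and 17.7% rose and 18.1% fell in KO cells. Of 6 melanocyte markers 4 fell in WT and 6 in KO cells (medians -0.47 and -0.85). Of 7 basal keratinocyte markers 3 fell in each genotype while 1 rose in WT and 2 in KO cells. Of 6 fibroblast markers 1 fell in each genotype, 1 of 3 immune markers rose in each, and the 2 endothelial markers past the filter rose in both. The part of these markers' cell types in the replication gene values was not tested.

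The next comparison asked whether the loss of PLA2G4D changed these genes under either condition. Basally, 1 of the 49 members was higher in KO cells at an adjusted p under 0.1, against 7.57% of all genes, and none was lower. That gene was Rrm2 (0.37 ± 0.14 in log2, adjusted p = 0.0951), whose WT values and KO range, given above, overlap. No member passed basally when any 1 of WT replicates 2 to 5 or KO replicates 1 to 6 was left out. The fold change was positive in 42 of 49 members, with a median of 0.16 against 0.00 over all genes. With cytokines 1 member was higher in KO cells, against 1.22% of all genes, and none was lower. That gene was Cdc6 (0.48 ± 0.15, adjusted p = 0.0934), and 6 of 8 treated KO libraries lay above all 5 treated WT ones. With cytokines too no member passed when any 1 of those 10 mice was left out, and 8 passed without KO replicate 8 (background not counted). The fold change was positive in 49 of 49 members with a median of 0.33, against -0.01 over all genes. No member had a fold over 1.5 with an adjusted p under 0.1 in either condition by edgeR, and an unadjusted p under 0.05 was reached by 2 members basally and 19 with cytokines, against 22.4% and 15% of all genes. At the adjusted p alone DESeq2 called 1 and 7 members higher and limma 2 and 3, and for these fits the share of all genes was not counted.

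These counts depended on WT replicate 1. That mouse was the highest WT library for nearly all members, so leaving it out raises their KO minus WT differences by construction. It also narrows the WT spread, with the SD of the score going from 0.38 to 0.14 basally and from 0.31 to 0.08 with cytokines. A low adjusted p in the fit without that mouse is therefore favoured in advance and is no independent support. The background over all genes does not correct for this, here or in the values without that mouse below. Without it, 21 members were higher in KO cells basally (background 10.4%) and 35 with cytokines (background 6.31%), with medians of 0.32 and 0.50 and no member lower. With a fold over 1.5 as well, 4 were higher basally (background 3.13%) and 14 with cytokines (background 1.54%). Without WT replicate 1 and KO replicate 8 the counts were 30 basally (background 11.6%) and 39 with cytokines (background 7.62%), with medians of 0.37 and 0.54. With cytokines all 8 KO libraries lay above the 4 WT libraries other than WT 1 for 22 of 49 members, against 3.46% of all genes. With all 13 mice, the treated WT 1 library lay inside or above the KO range for each of these 22 genes.

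Licensing and nucleotide supply genes showed the size of this shift. Mcm2 in treated cells was at 28.6 to 29.8 CPM in WT mice 2 to 5, at 51.8 CPM in WT 1 and at 37.1 to 56.1 CPM in KO mice. Its log2 difference between KO and WT was 0.44 ± 0.15 with all mice (adjusted p = 0.136) and 0.65 without WT replicate 1 (adjusted p = 0.000763). Cdc6 went from 0.48 to 0.59 (adjusted p = 0.0122 without WT replicate 1). It passed with and without that mouse but, as given above, not when any 1 of most other mice was left out. Rrm2 in treated cells was at 57.0 to 67.7 CPM in WT mice 2 to 5 and at 73.1 to 93.5 CPM in KO mice (0.36 ± 0.14, adjusted p = 0.185, and 0.50 without WT replicate 1, adjusted p = 0.00264). Dut differed by 0.55 ± 0.24 (adjusted p = 0.254) and by 0.89 without WT replicate 1 (adjusted p = 0.000809), and Tk1 by 0.39 ± 0.17 and 0.58 (adjusted p = 0.268 and 0.00872).

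Members of other roles also passed in the fit that leaves that mouse out, with the limit given above. Without WT replicate 1, the treated difference was 0.76 for Pola1 (adjusted p = 0.00826), 0.73 for Prim1 (adjusted p = 0.00918), 0.72 for Rfc4 (adjusted p = 0.00377), 0.60 for Uhrf1 (adjusted p = 0.00668), 0.62 for Rpa2 (adjusted p = 0.017), 0.49 for Fen1 (adjusted p = 0.0234) and 1.32 for Dscc1 (adjusted p = 0.0133), the lowest member in counts. With all 13 mice these differences were 0.44, 0.51, 0.53, 0.37, 0.48, 0.38 and 0.77 and none passed. Some members did not pass in either fit, among them Ccne1 (0.18 and 0.30), Ccne2 (0.21 and 0.31), E2f1 (0.23 and 0.36), Cdc45 (0.26 and 0.51), Slbp (0.12 and 0.18) and Ung (0.05 and 0.10). Pcna differed by 0.09 with all mice and by 0.16 without WT replicate 1 (adjusted p = 0.0836).

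Basally the differences without WT replicate 1 had a lower median and were led by Dut (0.79, adjusted p = 0.000463), Orc1 (0.78, adjusted p = 0.0024), Cdc45 (0.65, adjusted p = 0.0559) and Mcm5 (0.63, adjusted p = 0.000692). With all mice Orc1 stood at 0.50 ± 0.20 (adjusted p = 0.111) and Dut at 0.37 ± 0.24 (adjusted p = 0.386). Cdc6 had a basal difference of -0.16 ± 0.14 with all mice and -0.05 without WT replicate 1, and neither passed.

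**Figure D4:**
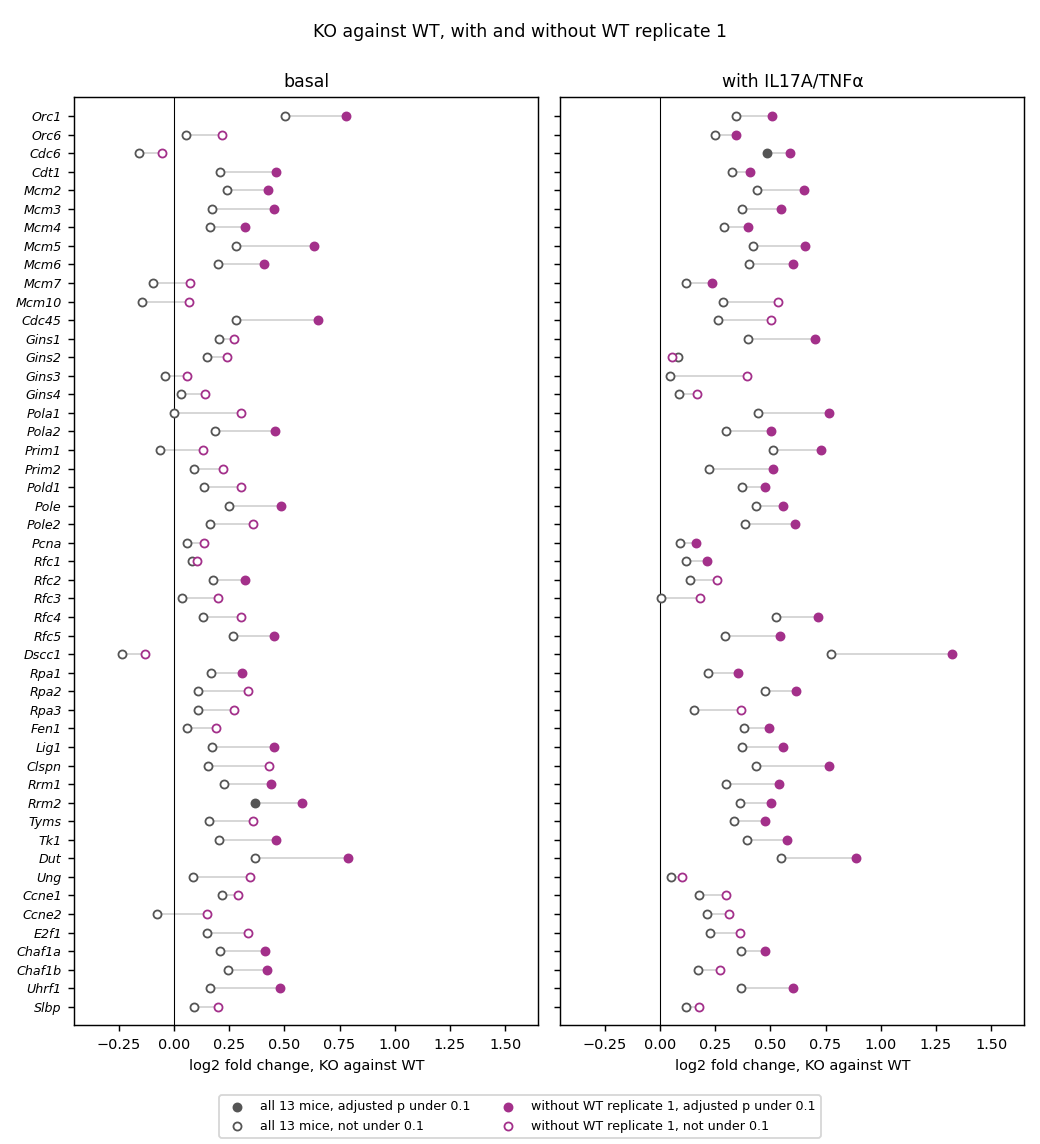
Log2 fold change of KO against WT for the 49 genes, basally (left) and with cytokines (right), with all 13 mice (grey) and without WT replicate 1 (purple); filled points have an adjusted p under 0.1. With all mice 1 point is filled in each panel (Rrm2, Cdc6), and without WT replicate 1 there are 21 and 35.

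**Figure D5:**
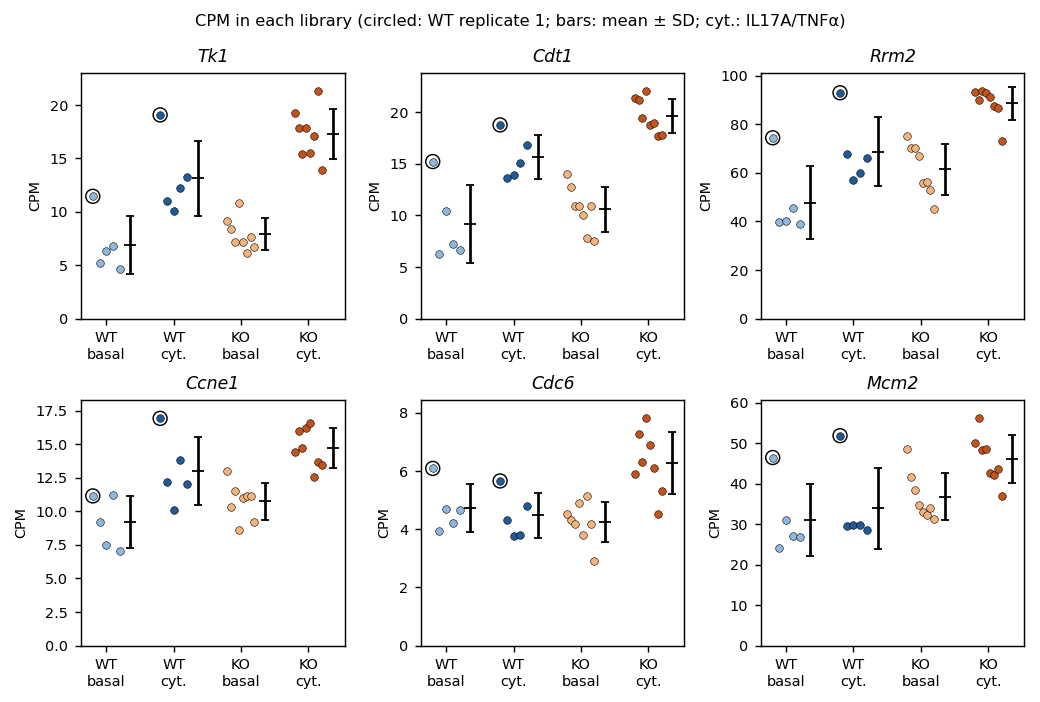
CPM of Tk1, Cdt1, Rrm2, Ccne1, Cdc6 and Mcm2 in each library by group, with WT replicate 1 circled and bars for the mean ± SD. For Mcm2 and Rrm2 the circled library is the highest of its WT group under both conditions, and 8 of 8 treated KO libraries of Tk1 and Cdt1 lie above all basal KO libraries.

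Differentiation markers moved with the genotype difference too. Of 7 markers, 3 were lower in KO cells basally and 5 with cytokines (4 and 6 without WT replicate 1), with median log2 differences of -0.50 and -0.92. The WT 1 libraries had the lowest sums of WT mice, 2333 CPM basally and 189 CPM with cytokines. Of all 16893 genes, 1024 were lower in KO cells basally and 273 with cytokines. Without WT replicate 1 these were 1503 and 1005 of 16850. Of 6 melanocyte markers, 4 were lower in treated KO cells, with sums of 334 to 477 CPM in WT and 305 to 406 CPM in KO libraries. The part of these differences in the replication gene values was not tested.

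Whether the cytokine response itself differed between the genotypes was tested as the interaction. No member passed at an adjusted p under 0.1 by edgeR, DESeq2 or limma, against 0.983% of all genes, and 3 of 49 had an unadjusted p under 0.05 by edgeR, against 9.13% of all genes, and 3 by DESeq2. The median difference in response (KO minus WT) was 0.16, and it was positive in 40 of 49 members. With the mouse as a block Cdc6 passed (0.64, adjusted p = 0.0764, background 2.80%). Without WT replicate 1 no member passed (0.522% of all genes were called higher) and Cdc6 stood at 0.64 (adjusted p = 0.151), and without that mouse and KO replicate 8 none passed (background 2.49%). The larger number of members called in KO than in WT cells is therefore not shown to be a difference in response. Cdc6, the 1 of 49 members that passed under the block, is a share no larger than the background of 2.80%.

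Other genes of the cell cycle were listed for comparison. Of 42 further replication genes tested, such as the remaining origin recognition subunits, 3 rose and 5 fell with cytokines in WT cells and 11 rose and 2 fell in KO cells, with medians of 0.01 and 0.15. Of all genes, 18.8% rose and 18% fell in WT cells, and 17.7% rose and 18.1% fell in KO cells, so the WT counts of this list lay below the background. Orc3, another origin recognition subunit, fell in WT cells (-0.38 ± 0.08, adjusted p = 0.00038). Mcm8, a helicase of recombination repair, rose in KO cells (0.53 ± 0.15, adjusted p = 0.0069). No gene of this list passed between genotypes with all mice by edgeR. An unadjusted p under 0.05 was reached by 3 basally and 12 with cytokines, against 22.4% and 15% of all genes.

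Genes that control the G1/S step moved both ways. Of 35 tested, 5 rose and 7 fell with cytokines in WT cells and 3 rose and 8 fell in KO cells. Among all genes, 18.8% rose and 18% fell in WT cells, and 17.7% rose and 18.1% fell in KO cells. The rises of this list did not exceed these shares, and its falls were close to them. E2f2, an activating E2F, fell in both (-1.50 ± 0.23, adjusted p = 7.21e-06, and -1.18 ± 0.18, adjusted p = 7.95e-06), as did the D-type cyclin Ccnd3 (-0.69 and -0.52). E2f7, a repressive E2F, rose in both (0.50 and 0.82) and was higher in treated KO than WT cells (0.74 ± 0.19, adjusted p = 0.0564). Of 20 mitosis genes, 1 rose in WT (background 18.8%) and 11 in KO cells (background 17.7%) with cytokines, with medians of 0.46 and 0.50. Between genotypes 1 was higher in KO cells basally (background 7.57%) and none with cytokines (background 1.22%), with medians of 0.43 and 0.55. That gene was Tpx2, a spindle assembly factor (0.60 ± 0.20, adjusted p = 0.0569). With cytokines 9 had an unadjusted p under 0.05 by edgeR, against 15% of all genes. Without WT replicate 1, 19 of 20 were higher basally (background 10.4%) and 20 of 20 with cytokines (background 6.31%). The counts of mitosis genes thus depended on that mouse, as those of the replication genes did. WT 1 had the highest mean deviation of the mitosis genes among WT libraries, 0.57 basally and 0.94 with cytokines. Leaving it out therefore raises these differences by construction as well.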

How the data were processed

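RNA of primary keratinocytes from 13 mice was sequenced as 26 libraries. The authors aligned the reads with STAR 2.7.10b to mm39, counted them per gene with featureCounts 2.0.6, and deposited 1 table of raw counts and 1 table of log2 normalized counts made with DESeq2. No per-sample column was left unused (0 columns).

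Counts were analysed in R 4.3.3 with edgeR 4.0.16. Genes with a mean normalized count above 10 were kept (16893), scaled by TMM, and fitted with 1 mean per group by the quasi-likelihood test with Benjamini-Hochberg adjustment, at an adjusted p under 0.1 with or without a fold over 1.5. CPM use these library sizes, FPKM the merged exon length in GENCODE, and log2 CPM a prior count of 1. Standard errors of log2 fold changes come from the test statistic. A gene was called only by this fit. The test, without the mouse as a block, was also run on simulated data with known changes.

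Replicates were separate mice, and no 2 libraries of a group agreed within sampling noise (lowest chi-square per degree of freedom 7.22). The basal and treated library of the same number come from the same mouse. Over all genes tested, not the members alone, their deviations from the group means correlated from 0.00051 to 0.25 (median 0.11). The mouse as a block was an alternative, which cannot be used for genotype. Other alternatives were scaling, filters, DESeq2 1.42.0, limma 3.58.1 on the deposited log2 values, a sex score as covariate, the samples in the fit, a stricter threshold, and leaving out each mouse. Leaving out WT replicate 1 and KO replicate 8 together, and the block without WT replicate 1, were added after seeing the data.

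The members, roles and comparison lists were chosen with earlier results of these data known. Members shown in every library were 12 representatives fixed by role (Mcm2, Cdc6, Cdc45, Pola1, Pcna, Rpa2, Rrm2, Tyms, Ccne1, Ccne2, E2f1 and Uhrf1) and the 3 largest called changes in each direction and comparison. Other members and genes of the comparison lists are named as examples, chosen after their values were seen. Promoters are from RefSeq (GRCm38.p6).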

Additional observations from a re-analysis of the deposited data

Results flagged for a closer look

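In 10 of 68 values examined (the member score and 16 genes in each of the 4 groups), 1 library lay far from the others of its group by Dixon's test. Chance alone flags about 1 in 20 such groups, and the genes share their libraries, so these are not independent. WT replicate 1 was the highest WT library in 8 of them. With cytokines these were the member score (0.477), Mcm2 (51.8 CPM), Pola1 (14.4 CPM), Pcna (98 CPM) and Uhrf1 (54.4 CPM). Basally these were Pcna (97.3 CPM), Rrm2 (74.4 CPM) and Uhrf1 (53.9 CPM). KO replicate 8 with cytokines was the lowest KO library for Rrm2 (73.1 CPM) and Uhrf1 (31.8 CPM). Cdc6 passed the interaction test with the mouse as a block (0.641 higher in KO on the log2 scale), where 2.80% of all genes passed. It was higher with cytokines in 8 of 8 KO and 2 of 5 WT mice, and did not pass without the block.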

How the results depend on the processing

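Directions of the medians were the same under every alternative run. The shift of the median over all genes under other scalings was at most 0.0311. With the mouse as a block, the pairing that the design gives, 18 members passed at the adjusted p in WT cells, 37 in KO cells and 1 for the interaction (also 1 with the fold limit); without WT replicate 1 in the same block these were 20, 36 and 1 (also 1). Leaving out WT replicate 1 and KO replicate 8 gave 17 for cytokines in WT (5 with the fold limit), 30 for genotype basally (5 with the fold limit) and 39 for genotype with cytokines (19 with the fold limit). For genotype basally the adjusted p alone called 0 members at a threshold of 0.05, with upper quartile scaling, with total counts, with no filter, with filterByExpr and with only the groups compared, and 2 with limma. For genotype with cytokines it called 0 at 0.05, with total counts and with no filter, 7 with DESeq2, 3 with limma and 8 with only the groups compared. Where no share of all genes is given above for an alternative, its count of members has no background to be set against. Leaving out 1 mouse gave 2 to 5 members for cytokines in WT with the fold limit (4 to 15 without it), 2 to 4 in KO (14 to 30), 0 to 4 for genotype basally (0 to 21), 0 to 14 for genotype with cytokines (0 to 35) and 0 for the interaction. The highest counts were without WT replicate 1, except that with the fold limit in KO cells; the lowest at the adjusted p alone were without WT replicate 5 (4 in WT), KO replicate 5 or KO replicate 6 (14 in KO), and any of WT replicates 2 to 5 or KO replicates 1 to 6 (0 for both genotype comparisons). Without KO replicate 8 the adjusted p called 2 members for genotype basally and 8 with cytokines (1 and 1 with the fold limit). Medians ranged from 0.11 to 0.18, 0.26 to 0.32, 0.08 to 0.32, 0.26 to 0.50 and 0.10 to 0.21 in the same order. Of the values of the 16 named members under alternatives, 1800 kept direction and side of the threshold, 72 newly passed, 45 no longer passed and 3 changed sign. Ccne2 for genotype basally went from -0.08 to 0.15 without WT replicate 1 and to 0.22 without KO replicate 8 as well, and Cdc6 from -0.16 to 0.011 without both; over single mice left out, the Ccne2 value ran from -0.21 to 0.15. The cause of these changes was not tested. Depth limits Dscc1 most, with 18 counts in its lowest library.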
